A study of Mus musculus with 18 samples.

Results

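The immunoproteasome and the machinery that loads peptides onto MHC class I were followed through 10 genes, all 10 of which were found, each on 1 entry, among the 36655 gene symbols of the deposited FPKM table. FPKM counts sequenced fragments scaled by transcript length and by the number of mapped fragments. The genes were chosen by name: the interferon-inducible catalytic subunits Psmb8, Psmb9 and Psmb10, the proteasome activator subunits Psme1 and Psme2, the peptide transporter subunits Tap1 and Tap2, the loading chaperone Tapbp (tapasin), the class I heavy chain H2-K1 and the class I light chain B2m. Every cell degrades its proteins with proteasomes, and in blood cells, or in other cells under interferon, 3 catalytic subunits of the core are replaced by inducible counterparts that favour the cutting of peptides for antigen presentation. The activator formed by Psme1 and Psme2 caps such proteasomes. The transporter Tap1-Tap2 then carries the peptides into the endoplasmic reticulum, where tapasin holds an empty class I molecule, made of a heavy chain and B2m, until a peptide fits.

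All cells, controls included, carried doxycycline-inducible Oct4, Sox2, Klf4 and c-Myc, and came from C57BL/6 mice whose whole body derived from induced pluripotent stem (iPS) cells. There were 3 blood cell populations: haematopoietic stem cells of the long-term (LT-HSC) and short-term (ST-HSC) kind, and myeloid progenitors (MP). Each gave 5 libraries: D at 2 and 4 days (2D and 4D, cultured with doxycycline), N at 2 and 4 days (2N and 4N, cultured without it) and uncultured cells. Fibroblasts gave 3 libraries, 2D, 4D and uncultured. The study asked how these populations differ early in reprogramming towards iPS cells, with N as the control for culture itself. Every condition was a single library, so the p-values below rest on the spread among cell types and days, which served as blocks. The doxycycline field reads yes for all 6 N libraries, against their titles and the series design. Sox2, one of the induced factors, stood at 15.6 to 61.3 FPKM in the D blood libraries, against 0 to 1.50 FPKM in the N blood libraries. The other induced factors did not separate the groups: Pou5f1 (Oct4) had at most 2.34 FPKM in D, with 0 in 3 of 6 libraries, and 0 in all N libraries, Klf4 had 0.704 to 11.2 FPKM in D and 0 to 22.6 FPKM in N, and Myc had 45.5 to 189 FPKM in D and 102 to 319 FPKM in N, lower in D in 5 of 6 pairs. The titles were used.

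Each blood library was made from 25 hand-picked cells by oligo-dT priming and PCR, the fibroblast libraries by a standard route, so method and cell type cannot be told apart between them. Summed FPKM ran between 677649 and 767866 in the 15 blood libraries and between 524225 and 572069 in the 3 fibroblast libraries, and sequencing depth is unknown. A value of 0 may be a failed estimate, since the housekeeping genes Gapdh and Rpl3 were at 0 in certain libraries. Both were listed low throughout, however, at no more than 7.34 and 5.82 FPKM in the blood libraries, so neither fell to 0 from a high level. Their levels may be understated in all libraries. Some libraries stood apart. The summed FPKM of 5 genes shared by all leukocytes (Ptprc, Cd53, Coro1a, Laptm5 and Cd37) was 2623 and 2121 in ST-HSC 2D and 4D, but 276 and 27.6 in LT-HSC 2D and 4D and 205 and 9.15 in MP 2D and 4D, against 2540 to 4603 in the N libraries. Coro1a made up most of the ST-HSC sums (2254 and 1907 FPKM in 2D and 4D). Cd37, alone of the 5, was under every N library in ST-HSC at both days (0 and 3.59 FPKM, against 24.3 to 255 FPKM in N). The uncultured library labelled LT-HSC had 42340 FPKM over 6 myeloid progenitor genes such as Mpo and Elane, near the 59190 of uncultured MP and far above the 1630 of uncultured ST-HSC. In these bulk samples, fewer cells of a type and less RNA per cell cannot be told apart.

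Of the 10 genes, 6 lie on mouse chromosome 17, and Psmb9, Tap1, Psmb8 and Tap2 are consecutive coding genes there, between the class II genes H2-DMb1 and H2-Ob. Promoter windows of 300 bases (250 before to 50 after the start site, RefSeq, GRCm38.p6) were found for 9 of the 10, all but Tap2. For each of these genes only the window of the start site furthest upstream was used, so a motif at another start would be missed. The shares over all windows given below count every window. Psmb9 and Tap1 are read in opposite directions from start sites 225 bases apart, so that 275 bases of their windows are the same DNA. The windows below are shown because they belong to genes that differed most between D and N (Tap1 with Psmb9, and Psmb8) and to the subunits of the class I molecule itself. Capitals mark matches, on either strand, to 4 motifs: GAAANNGAA (of the interferon regulatory factor type), TTCNNNGAA (of the STAT type), TGACG (the half-site of cyclic AMP response elements) and the NF-kB consensus. Sequences run 5′ to 3′ along the gene, and the coordinates are Tap1 chr17:34187306-34187605 (plus strand), Psmb8 chr17:34197945-34198244 (plus strand), H2-K1 chr17:34000298-34000597 (minus strand) and B2m chr2:122147437-122147736 (plus strand).
Tap1: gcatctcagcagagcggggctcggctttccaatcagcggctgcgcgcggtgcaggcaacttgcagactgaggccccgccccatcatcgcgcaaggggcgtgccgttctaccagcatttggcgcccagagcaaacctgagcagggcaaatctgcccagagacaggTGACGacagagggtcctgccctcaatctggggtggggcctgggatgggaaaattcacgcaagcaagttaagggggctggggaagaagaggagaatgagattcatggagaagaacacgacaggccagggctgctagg
Psmb8: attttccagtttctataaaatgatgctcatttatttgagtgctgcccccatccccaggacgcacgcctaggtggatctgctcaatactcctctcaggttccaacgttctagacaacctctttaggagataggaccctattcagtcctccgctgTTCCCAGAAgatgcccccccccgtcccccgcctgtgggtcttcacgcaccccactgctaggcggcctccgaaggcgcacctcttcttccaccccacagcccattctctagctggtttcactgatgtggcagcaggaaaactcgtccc
H2-K1: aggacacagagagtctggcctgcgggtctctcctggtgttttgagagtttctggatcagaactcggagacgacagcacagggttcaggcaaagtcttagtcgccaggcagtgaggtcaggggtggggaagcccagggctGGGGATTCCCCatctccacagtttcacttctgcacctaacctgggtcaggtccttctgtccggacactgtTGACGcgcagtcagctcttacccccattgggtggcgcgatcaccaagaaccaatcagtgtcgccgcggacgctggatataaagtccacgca
B2m: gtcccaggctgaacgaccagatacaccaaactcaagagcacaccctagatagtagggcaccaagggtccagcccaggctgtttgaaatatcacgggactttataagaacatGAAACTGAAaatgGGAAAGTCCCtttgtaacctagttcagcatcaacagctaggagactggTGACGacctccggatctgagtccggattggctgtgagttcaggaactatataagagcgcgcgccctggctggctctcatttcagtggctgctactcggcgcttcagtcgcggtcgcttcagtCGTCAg

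The single TGACG of the Tap1 window, 86 bases before its start site, is the same site as the single match in the Psmb9 window, 144 bases before that gene's start. TGACG was present in 5 of the 9 windows (Tap1, Psmb9, Psme2, H2-K1 and B2m), against 20.8% of all 32851 promoter windows. The NF-kB consensus was present in 2 (H2-K1 and B2m, against 4.51% of all windows), GAAANNGAA in 2 (B2m and Psme1, against 8.56%) and TTCNNNGAA in 1 (Psmb8, against 8.3%). The 2 NF-kB matches of the H2-K1 window overlap each other. These matches are a description of the letters and not of bound sites.

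Psmb8 (ENSMUSG00000024338), the inducible chymotrypsin-like subunit, was an abundant message in N and uncultured blood cells and was lower in D than in N in every pair. It had 249, 449 and 203 FPKM in LT-HSC, ST-HSC and MP 2D and 19.7, 446 and 13.7 FPKM in the 4D libraries of the same order. In N it had 703, 1244 and 646 FPKM at day 2 and 951, 1469 and 780 FPKM at day 4. No D library reached the lowest N library. The 2 lowest values were those of LT-HSC 4D and MP 4D, at 2.1 and 1.8% of their N partners, while both ST-HSC D libraries kept about 450 FPKM. Fitted over the 6 pairs with limma on log2(FPKM + 1), Psmb8 fell by 2.94 ± 0.65 log2 units (SE; 95% interval -4.42 to -1.45, adjusted p = 0.0269). The call ended when the MP day 2 pair (adjusted p = 0.0594) or the MP day 4 pair (0.0585) was left out.

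Psmb9 (ENSMUSG00000024337), the inducible counterpart of the constitutive subunit Psmb6, was lower still. Its values were 12.6, 103 and 16.6 FPKM in LT-HSC, ST-HSC and MP 2D, and in 4D it was listed at 0 in LT-HSC and MP and at 41.6 FPKM in ST-HSC. In N it had 76.3, 151 and 52.8 FPKM at day 2 and 137, 167 and 117 FPKM at day 4. Each D library was below its own N partner, although ST-HSC 2D was above the lowest N libraries, so the ranges overlapped. Psmb9 fell by 3.44 ± 0.89 log2 units (-5.45 to -1.44, limma adjusted p = 0.0445), a size that depends on the 1 added before the log because 2 libraries were at 0. With 0.1 added the difference was -4.57, and the call ended (adjusted p = 0.109). It also ended without any 1 of the pairs other than ST-HSC day 2, with limma adjusted p between 0.0556 and 0.11 in those 5 fits.

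Psmb10 (ENSMUSG00000031897), the inducible trypsin-like subunit, showed the steadiest difference. It had 67.1, 110 and 74.7 FPKM in LT-HSC, ST-HSC and MP 2D and 36.9, 99.5 and 33.6 FPKM in 4D. The N libraries had 183, 257 and 207 FPKM at day 2 and 204, 196 and 229 FPKM at day 4. The groups did not overlap, and D was at 14.7 to 50.7% of N in the 6 pairs. Psmb10 fell by 1.71 ± 0.26 log2 units (-2.30 to -1.12, limma adjusted p = 0.0043), and it remained past the threshold with each of the 6 pairs left out (largest adjusted p = 0.0154).

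**Figure D1:**
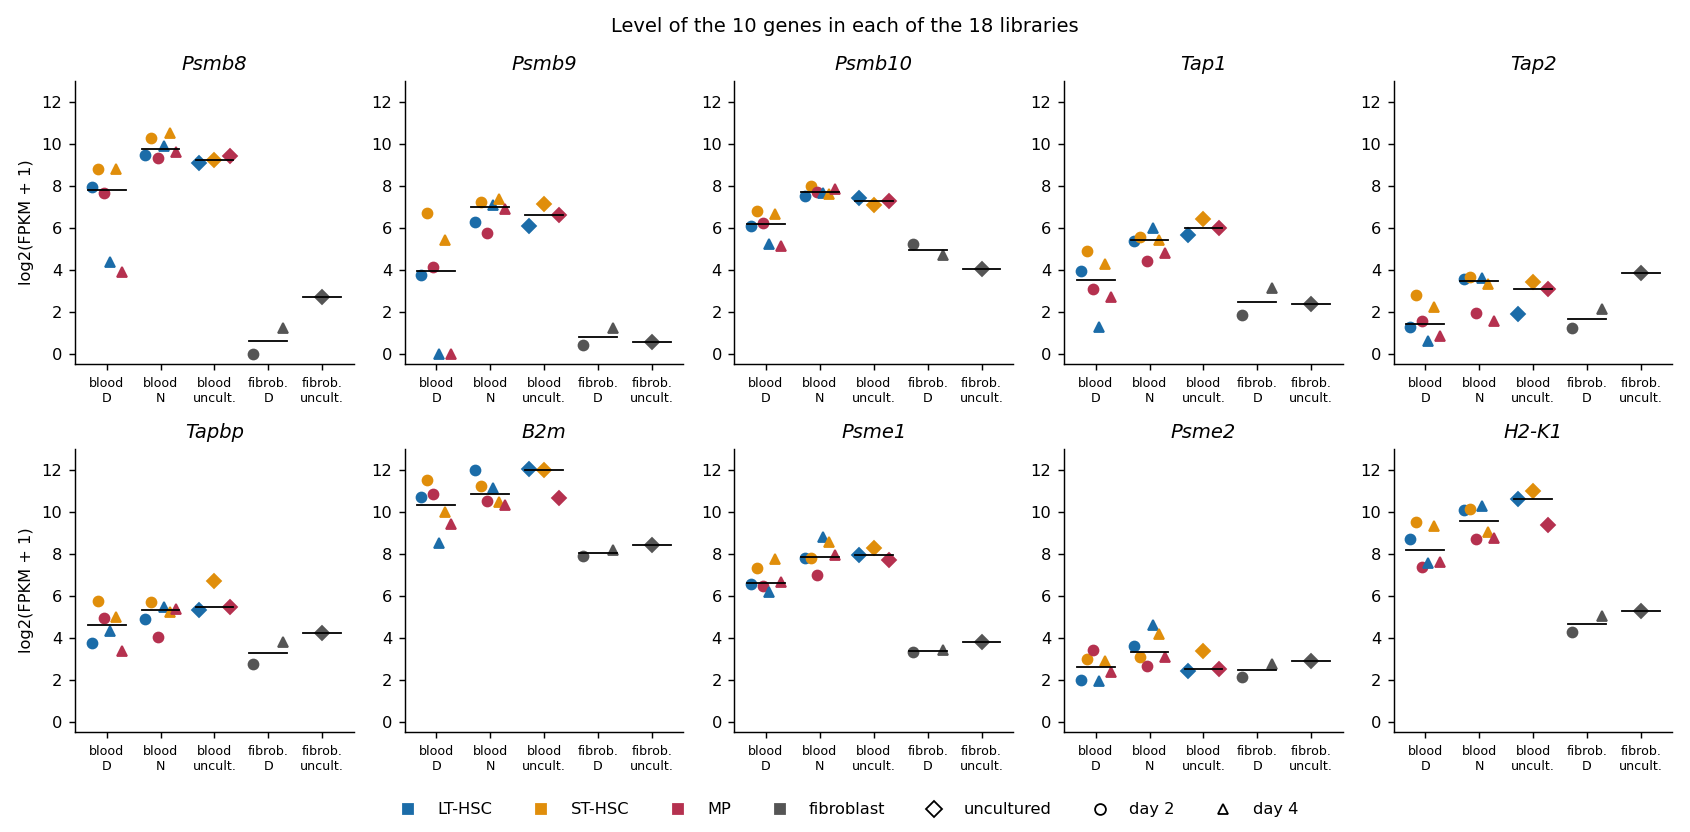
Level of each of the 10 genes, as log2(FPKM + 1), in the 18 libraries, grouped from left to right as D, N and uncultured blood cells and D and uncultured fibroblasts; colour gives the cell type, the symbol gives the day, and bars are medians. For Psmb8 and Psmb10 every D blood library lies under every N blood library, and the 2 lowest D points of Psmb8 are LT-HSC 4D and MP 4D.

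Psme1 (ENSMUSG00000022216), which with Psme2 forms the activator ring, was also lower in D in all 6 pairs. It ranged over 72.2 to 215 FPKM in D (median 96.5) and over 125 to 440 FPKM in N (median 232). It fell by 1.15 ± 0.28 log2 units (-1.76 to -0.53, limma adjusted p = 0.0312). The Psme1 call ended when the LT-HSC day 2, MP day 2, ST-HSC day 4 or MP day 4 pair was left out (limma adjusted p 0.0515 to 0.0836). Its partner Psme2 (ENSMUSG00000079197) was listed far lower, at 2.86 to 9.57 FPKM in D and 5.23 to 23.6 FPKM in N, and did not pass the test (-0.94 ± 0.46, adjusted p = 0.251). The level of Psme2 is uncertain, since 59.3% of the 50-base stretches of its longest coding transcript occur also in other genes, among them Psme2b (14.1% for Psme1). In MP at day 2, Psme2 in D was at 182.8% of N (9.57 FPKM in 2D and 5.23 FPKM in 2N).

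Tap1 (ENSMUSG00000037321), the transporter subunit that shares its promoter with Psmb9, fell by 1.92 ± 0.49 log2 units (-3.01 to -0.83, limma adjusted p = 0.0381). It had 14.2, 28.9 and 7.36 FPKM in LT-HSC, ST-HSC and MP 2D and 1.38, 18.3 and 5.58 FPKM in 4D. The N values were 41.1, 46.7 and 20.5 FPKM at day 2 and 63.6, 42.0 and 27.1 FPKM at day 4. D was lower in every pair, with ST-HSC 2D above both MP N values. The Tap1 call ended without either MP pair, without LT-HSC at day 2 or without ST-HSC at day 4 (limma adjusted p 0.0626 to 0.0935) and with 0.1 added before the log (0.0537). Tap2 (ENSMUSG00000024339), its partner, was lower in D in 6 of 6 pairs but low in general, at 0.511 to 6.03 FPKM in D (median 1.67) and 1.91 to 11.6 FPKM in N (median 9.95). Its difference of -1.39 ± 0.45 log2 units did not pass (adjusted p = 0.0862), and 12.6% of its stretches occur in other genes.

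Tapasin, Tapbp (ENSMUSG00000024308), moved in both directions. Its level was 105.9% of the N value in ST-HSC and 193.7% in MP at day 2, and 43.0% in LT-HSC at that day. At day 4 all 3 D libraries (19.1, 30.5 and 9.27 FPKM in LT-HSC, ST-HSC and MP) were under all 3 N libraries (43.9, 36.8 and 41.0 FPKM). The fitted difference was -0.60 ± 0.37 log2 units (-1.44 to 0.23, limma adjusted p = 0.373). Of the 50-base stretches of its longest coding transcript, 21.0% occur in other genes, 416 in all, so its level is uncertain.

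The class I molecule includes B2m, the most abundant message of the set, and neither of its chains passed the test. The heavy chain H2-K1 (ENSMUSG00000061232) had 423, 739 and 167 FPKM in LT-HSC, ST-HSC and MP 2D and 186, 639 and 196 FPKM in 4D, against 1076, 1141 and 423 FPKM in 2N and 1257, 526 and 432 FPKM in 4N. It was lower in D in 5 of 6 pairs, the exception being ST-HSC at day 4, and its difference of -1.15 ± 0.32 log2 units missed the threshold (-1.86 to -0.44, limma adjusted p = 0.0529). Without the ST-HSC day 4 pair it passed (-1.44, adjusted p = 0.0229). Of the 50-base stretches of the longest coding H2-K1 transcript, 8.79% occur in other genes, chiefly other class I heavy chains, so reads could have been shared among them.

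The light chain B2m (ENSMUSG00000060802) had 1660, 2958 and 1861 FPKM in LT-HSC, ST-HSC and MP 2D, against 4095, 2442 and 1483 FPKM in 2N. At day 4 it had 365, 1010 and 683 FPKM in D and 2258, 1416 and 1303 FPKM in N. At day 2 only LT-HSC was lower in D, and at day 4 every D library was under every N library. Over all pairs B2m did not pass (-0.79 ± 0.34, -1.56 to -0.03, limma adjusted p = 0.193).

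In all, 5 of the 10 genes fell in D (Psmb8, Psmb9, Psmb10, Psme1 and Tap1), none rose, and all 10 estimates were below 0, with a median of -1.27 log2 units. Of the 12254 genes tested, 8.97% passed in either direction and 4.44% were lower in D, and the median over all of them was 0.02. Every D library lay under every N library for 2 of the 10 (Psmb8 and Psmb10), against 2.12% of all tested genes. Day by day this held for 2 of the 10 at day 2, against 8.67% of genes, and for 8 at day 4 (all but Tap2 and H2-K1), against 9.45%. The number of the 10 called was 1 without the MP day 2 pair or without the MP day 4 pair, 2 without LT-HSC day 2 and 3 without ST-HSC day 4, with Psmb10 called in each of these fits.

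The size of the difference was not the same in every pair. In LT-HSC all 10 genes were at least 2-fold lower in D at day 2 and again at day 4 (on the FPKM + 1 scale), where 18.6 and 21.9% of all tested genes were. The LT-HSC medians over the 10 genes were -1.45 log2 units at day 2 and -2.71 at day 4. In MP 5 of the 10 were at least 2-fold lower at day 2 and 7 at day 4, against 17.3 and 18.6% of genes, with medians of -0.91 and -1.65. In ST-HSC it was 2 at day 2 (Psmb8 and Psmb10) and 5 at day 4, against 17.5 and 13.2% of genes, with medians of -0.59 and -1.02. The ST-HSC pairs thus had the smallest medians at each day.

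**Figure D2:**
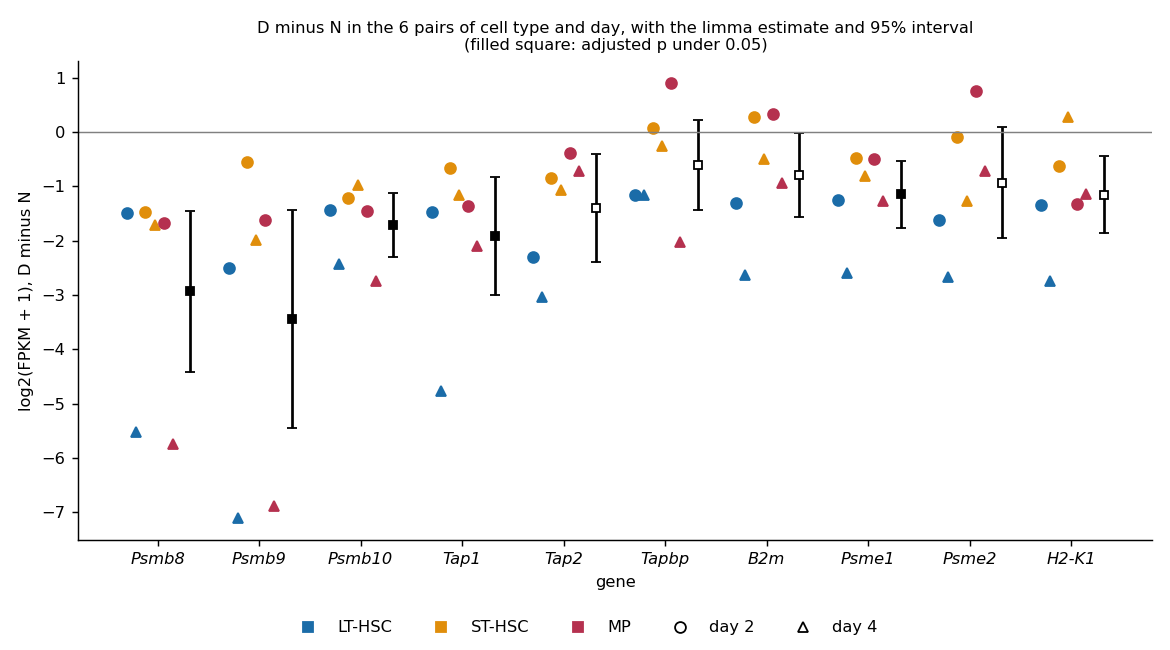
Difference in log2(FPKM + 1), D minus N, for each of the 10 genes in the 6 pairs (colour, cell type; circle, day 2; triangle, day 4), with the limma estimate and its 95% interval as a square, filled where the adjusted p is under 0.05. Filled squares are Psmb8, Psmb9, Psmb10, Tap1 and Psme1, and the LT-HSC and MP day 4 points of Psmb8 and Psmb9 lie between -5.52 and -7.11.

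Whether the D minus N difference itself depended on day or cell type was tested in limma by interaction terms. The day 4 minus day 2 change in that difference was below 0 for all 10 genes, with a median of -1.11 log2 units, and largest for Psmb9 (-3.76 ± 1.27) and Psmb8 (-2.78 ± 0.94). None passed (adjusted p = 0.989 for both, unadjusted 0.0164 and 0.0171), and 0% of the 12254 genes did, 511 of them being under an unadjusted p of 0.05. The difference between MP and the stem cells in D minus N likewise passed for 0% of genes (1018 at an unadjusted p under 0.05) and for none of the 10, with Psmb9 at -1.21 ± 1.90 and Psmb8 at -1.15 ± 1.38. Both fits could miss large differences. In simulated data the day fit found 16% of genes shifted by 2 log2 units, and the MP fit found 4%.

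The inducible subunits varied with the leukocyte gene sum across the D blood libraries. In D, Psmb8 and Psmb9 were highest in the ST-HSC libraries, whose leukocyte gene sum (2623 and 2121 FPKM) was close to the N range, and lowest in MP 4D and LT-HSC 4D, where that sum was 9.15 and 27.6 FPKM. LT-HSC 2D and MP 2D were intermediate in both. Most of the ST-HSC sums was Coro1a, and Cd37 was low in these 2 libraries as well (0 and 3.59 FPKM in 2D and 4D). An alternative fit without both ST-HSC pairs was added after seeing the data. Its estimates were -3.61 log2 units for Psmb8, -4.53 for Psmb9, -2.02 for Psmb10, -1.40 for Psme1, -1.64 for H2-K1 and -2.42 for Tap1. The ST-HSC pairs had the smallest medians over the 10 genes at each day, so larger estimates follow from leaving them out. No conclusion is drawn from that fit. Sums of other lineage markers were lower in D for some lineages and overlapped for others. The summed FPKM of 6 myeloid progenitor genes was 1.83 to 142 in D (Cebpe at 0 in all 6), against 134 to 34940 in N. That of 8 macrophage and dendritic cell genes was up to 74.0 in D (Emr1, Itgax, Mrc1, C1qa and C1qb at 0), against 115 to 329 in 5 N libraries and 2181 in MP 4N (C1qa and C1qb at 0). B cell genes reached 4.76 in D and 32.3 in N, with Cd79a, Ms4a1 and Pax5 at 0 in both. The remaining marker sums were 0 in D and up to 954 in N for mast cells and basophils, at most 8.12 in D and at least 11.9 in N for megakaryocytes, up to 6.43 in D and, in N, up to 2.84 in 5 libraries and 525 in MP 4N for T and NK cells (medians 1.51 in D and 1.34 in N), up to 15.1 in D and 11.2 in N for erythroid cells, up to 33.4 in D and 25.4 in N for fibroblasts, and 111 to 1434 in D and 67.5 to 767 in N for stem and progenitor cells. The myeloid progenitor, T and NK cell, erythroid, fibroblast and stem cell sums overlapped between D and N. The mast cell and basophil sum was 0 in LT-HSC 2N and 4N as well. In the T and NK cell list, Cd3e, Cd3d, Cd3g and Ncr1 were at 0 in both D and N, and the MP 4N sum was Gzmb alone (524.8 FPKM). The highest D sums of the erythroid and fibroblast lists were mostly Alas2 (14.0 FPKM in LT-HSC 4D) and Col1a2 (32.3 FPKM in MP 2D). The part of these marker differences in the lower values of the 10 genes was not tested.

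**Figure D3:**
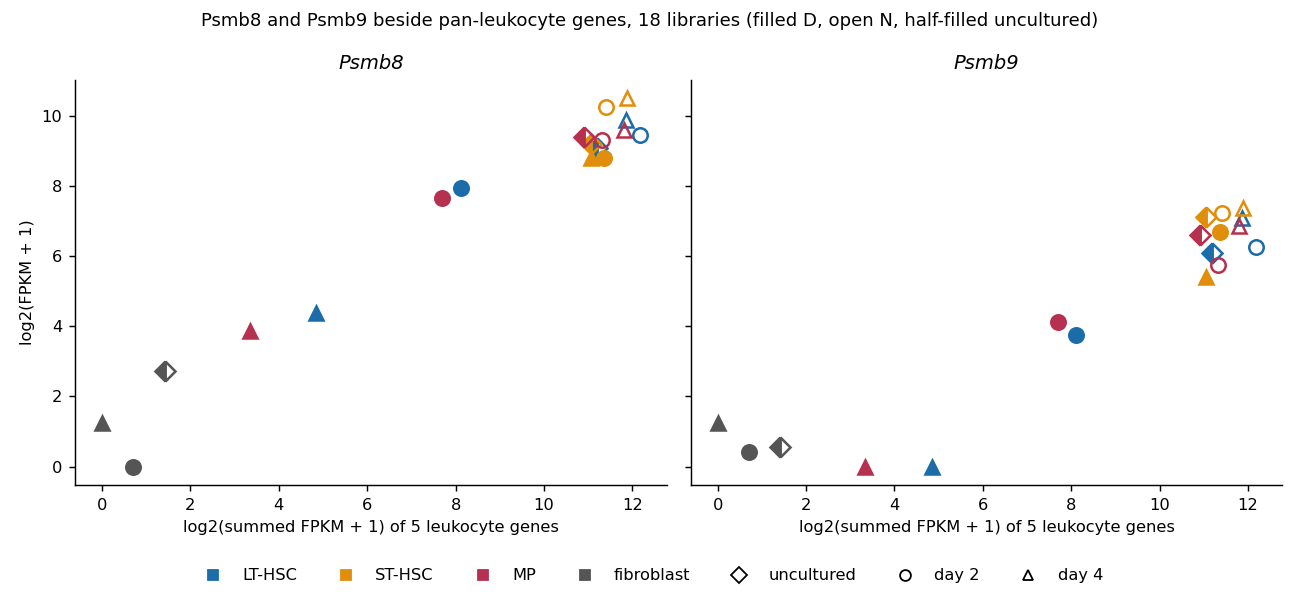
Psmb8 (left) and Psmb9 (right) as log2(FPKM + 1) against the log2 of the summed FPKM + 1 of Ptprc, Cd53, Coro1a, Laptm5 and Cd37 in the 18 libraries; filled symbols are D, open ones N and half-filled ones uncultured. On the horizontal axis the ST-HSC D libraries (2623 and 2121 FPKM) lie near the N and uncultured blood libraries, while their Psmb8 (449 and 446 FPKM) is under all of these. MP 4D (9.15 FPKM) and LT-HSC 4D (27.6 FPKM) have the lowest sums of the blood libraries. Coro1a gives most of the ST-HSC D sums (2254 and 1907 FPKM in 2D and 4D).

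Ordered by median FPKM, a level scaled by length, D blood libraries ran B2m, H2-K1, Psmb8, Psme1, Psmb10, Tapbp, Psmb9, Tap1, Psme2 and Tap2, against B2m, Psmb8, H2-K1, Psme1, Psmb10, Psmb9, Tap1, Tapbp, Tap2 and Psme2 in N. In D the ranges of all neighbours in this order overlapped, and in N all did except Psmb10 with Psmb9 and Tapbp with Tap2. Psmb8 and Psmb9 varied together over the 15 blood libraries (Pearson r = 0.978 on log2 values), as did Psmb8 and Psmb10 (0.94) and the neighbours Psmb9 and Tap1 (0.91). Of the 50-base stretches, 12.5% for Psmb9 and 6.47% for Tap1 occur also in other genes, in Psmb9's case only in Tap1, so reads could have been counted for either. The lowest of the 45 pairs was Psme2 with H2-K1 (0.393). Among 8813 genes with a mean of at least 5 FPKM, those most like Psmb9 were Rac2 (r = 0.975), Wdfy4 (0.972), Parvg, Vav1 and Selplg (0.971 each), and those most like Psmb8 were Parvg (0.972), Rac2 (0.97), Wdfy4 (0.968), Casp8 and Selplg (0.959 each). Rac2 is a small GTPase of blood cells, Vav1 a signalling exchange factor, Selplg a selectin ligand and Casp8 an apoptotic protease. Rac2 had at most 184 FPKM in D and at least 323 FPKM in N. These correlations describe 15 libraries that share culture conditions and cell types in part.

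Each inducible subunit replaces a constitutive one in the assembled core: Psmb8 replaces Psmb5, Psmb9 replaces Psmb6 and Psmb10 replaces Psmb7. The constitutive subunits did not pass the test between D and N. Psmb5 had a median of 31.8 FPKM in D and 36.9 FPKM in N (-0.28 ± 0.22 log2 units, limma adjusted p = 0.503). Psmb6 had a median of 489 FPKM in D and 364 FPKM in N (0.26 ± 0.15, adjusted p = 0.356), and Psmb7 one of 529 FPKM in D and 406.5 FPKM in N (0.43 ± 0.16, adjusted p = 0.134). The level of Psmb5 is uncertain because 57.1% of its 50-base stretches occur in other genes (28.1% for Psmb7 and 2.67% for Psmb6).

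On the FPKM scale, Psmb8 made up 32.6 to 96.4% of Psmb8 plus Psmb5 in D (median 83.7) and 91.8 to 98.2% in N (median 96.7). Psmb9 made up at most 24.2% of Psmb9 plus Psmb6 in D (median 3.75) and 14.0 to 37.4% in N (median 22.7). Psmb10 made up 5.5 to 23.6% of Psmb10 plus Psmb7 in D (median 12.8) and 29.0 to 48.7% in N (median 33.6), with no overlap. All 3 inducible-to-constitutive ratios were lower in D in 6 of 6 pairs. The log2 ratio changed by -2.66 ± 0.93 for Psmb8 to Psmb5, -3.70 ± 1.17 for Psmb9 to Psmb6 and -2.14 ± 0.27 for Psmb10 to Psmb7 (SE over pairs). For each ratio the exact sign-flip p, two-sided, was 0.0312 (0.0312 after adjustment over the 3 ratios), the smallest that 6 pairs allow. In uncultured blood cells the shares were 94.9 to 97.4%, 21.2 to 27.6% and 34.4 to 52.0% for Psmb8, Psmb9 and Psmb10, overlapping the N ranges.

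**Figure D4:**
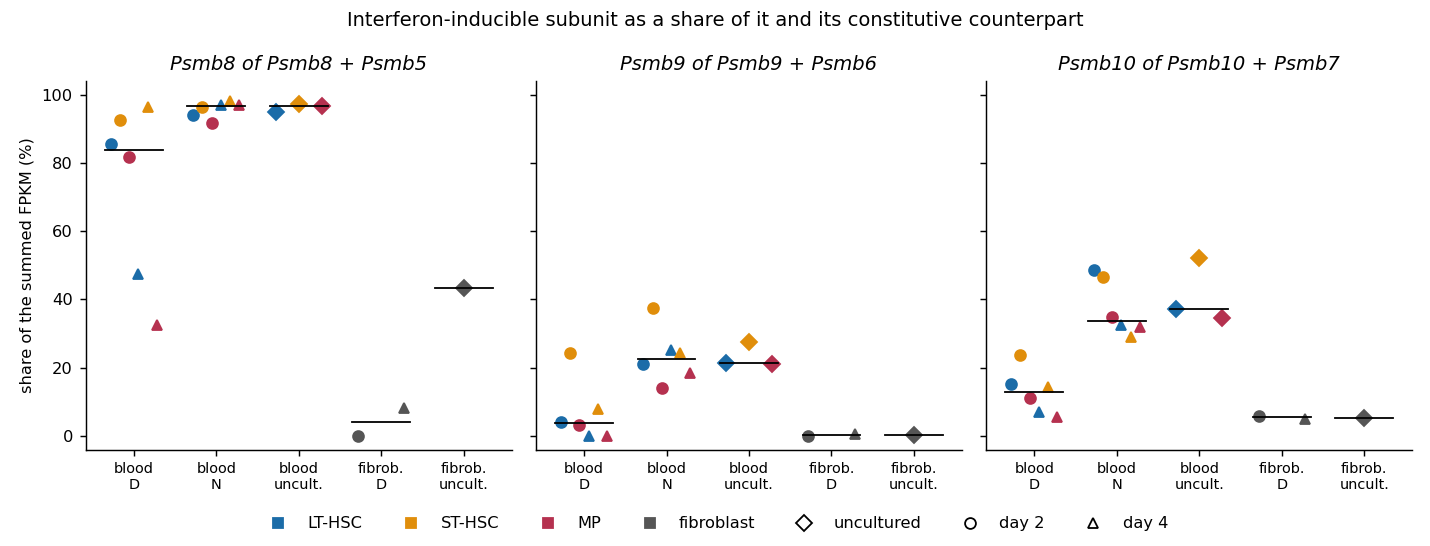
Inducible subunit as a percentage of the summed FPKM of it and its constitutive counterpart, by library, for Psmb8 with Psmb5, Psmb9 with Psmb6 and Psmb10 with Psmb7; groups run from D, N and uncultured blood cells to D and uncultured fibroblasts, and bars are medians. The Psmb10 share does not exceed 23.6% in any D blood library and is at least 29.0% in every N blood library.

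The other proteasome genes were looked at as lists. Of 11 other core subunits none passed between D and N in limma (median 0.04 log2 units), and of 20 subunits of the 19S cap, which unfolds tagged proteins, only Psmd5 passed, lower in D (-0.77, adjusted p = 0.0291, 75.8 to 139 FPKM in D and 125 to 281 FPKM in N). Psmd5 is an assembly chaperone of the cap. None of 7 other proteasome regulators passed (median -0.16). Of the other class I heavy chains, 11 of 18 were tested, with a median of -0.94. H2-Q7, a non-classical chain, fell by 2.11 (adjusted p = 0.0464), and the classical chain H2-D1 did not pass (-0.79, adjusted p = 0.0823), with 108 to 409 FPKM in D and 226 to 458 FPKM in N. Of the 50-base stretches of H2-D1, 14.3% occur in other genes, among them H2-Q6 and H2-Q7, so reads could have been shared among these chains.

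Among 8 chaperones and trimming enzymes of the endoplasmic reticulum, 2 fell. Calreticulin (Calr), which holds class I molecules during loading, fell by 1.50 log2 units (adjusted p = 0.0221), with a median of 135 FPKM in D and 415 FPKM in N. Tapbpl, the peptide editor related to tapasin, fell by 2.37 (adjusted p = 0.0238). Of 21 regulators of class I and interferon signalling, Irf8, an interferon regulatory factor of myeloid and B cells, fell by 3.60 (adjusted p = 0.0196), with 5.61 FPKM or less in D and 1.10 to 190 FPKM in N. The class I transactivator Nlrc5 had a median of 0.653 FPKM in D and 12.3 FPKM in N but missed the threshold (-2.08 ± 0.59, adjusted p = 0.0592). Irf1, an interferon regulatory factor, did not pass either (-0.93, adjusted p = 0.21).

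None of 15 other tested interferon targets passed between D and N (median -0.31). Class II genes, which present to helper T cells and include neighbours of Psmb9 on chromosome 17, had 3 of 9 tested members lower (median -1.68). The peptide exchange subunits H2-DMa (-4.10, adjusted p = 0.0023) and H2-DMb1 (-2.59, 0.0353) and the class II chain H2-Aa (-2.94, 0.0304) fell. H2-DMa had a median of 11.7 FPKM in D and 162 FPKM in N. These adjusted p come from the same limma fit over all genes.

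**Figure D5:**
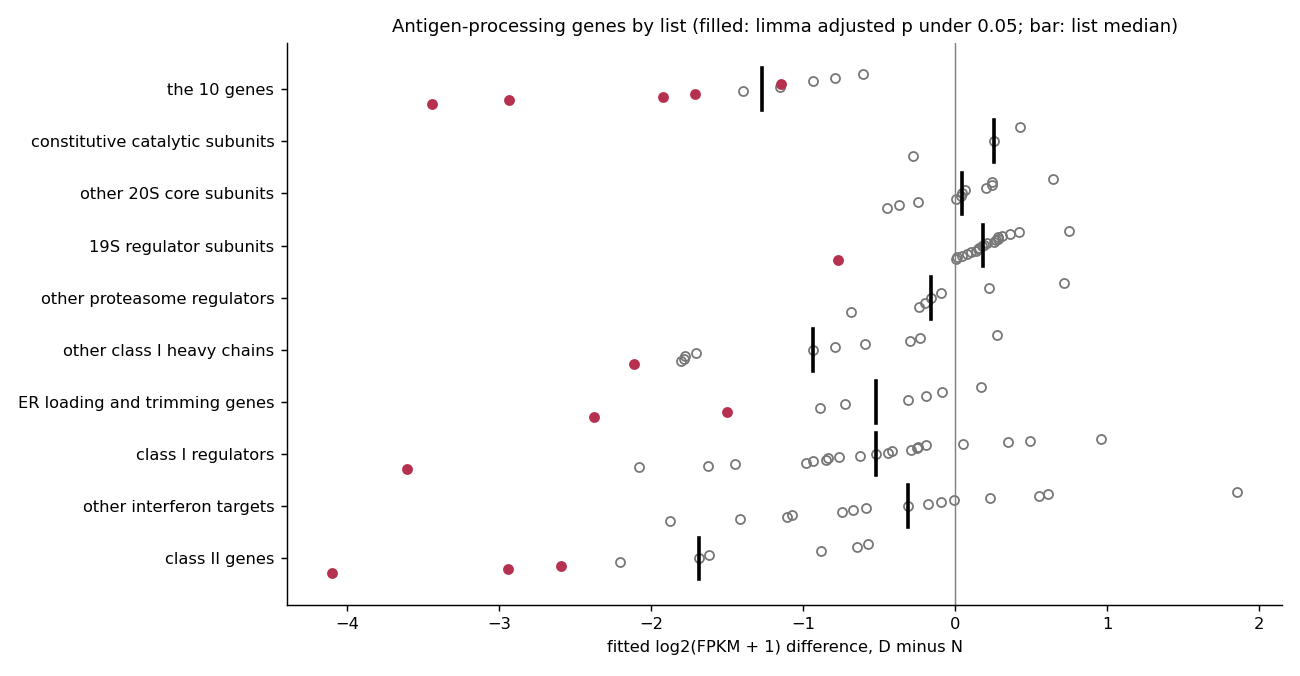
Fitted D minus N difference in log2(FPKM + 1) for each tested gene of 10 antigen-processing lists, the 10 genes at the top; filled points have a limma adjusted p under 0.05 and bars are list medians. The bars lie at -1.27 for the 10 genes and -1.68 for class II genes, but at 0.26, 0.04 and 0.18 for the constitutive, other core and 19S subunits.

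Between N and uncultured cells the estimates of the 3 inducible subunits were above 0 and those of both class I chains below it, with no call. Of 12060 genes, 8.89% passed between N and uncultured cells in limma, and of the 10 genes 0 did, 3 of them being under an unadjusted p of 0.05. Psmb8 had 646 to 1469 FPKM in N and 546 to 683 FPKM uncultured (0.61, adjusted p = 0.146), and Psmb9 had 52.8 to 167 FPKM in N and 68.0 to 139 FPKM uncultured (0.16). For Psmb10 the 6 N libraries (183 to 257 FPKM) were all above the 3 uncultured ones (136 to 169 FPKM), as held for 1 of the 10 genes and for 7.92% of all tested genes, with a difference of 0.46 that did not pass (adjusted p = 0.232). The class I chains did not pass either, at -0.81 for H2-K1 (adjusted p = 0.0973) and -0.61 for B2m (0.173).

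Some relatives did pass between N and uncultured cells. Of the 11 tested other heavy chains 4 were lower in N, among them H2-Q6 (-4.08, adjusted p = 0.0041), H2-Q7 (-2.51, 0.0224) and H2-D1 (-1.04, 0.0449). Reads could have been shared among these chains, so their calls may not be independent. In the opposite direction, 4 of 11 other core subunits rose, led by Psmb4 (1.28, 0.0072) and Psma1 (1.29, 0.011), and 2 of 7 proteasome regulators, including the assembly factor Psmg2 (1.63, 0.0131). Of the regulators of class I, 3 of 21 fell, among them the interferon gamma receptor chain Ifngr1 (-2.39, 0.0017) and Irf1 (-2.29, 0.015). Cxcl10, an interferon-induced chemokine, was the 1 of 17 other interferon targets that passed (-6.64, 0.0012), the chaperone Hspa5 the 1 of 8 reticulum genes (-1.91, 0.0201) and H2-Oa the 1 of 10 class II genes (-1.84, 0.0423).

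Against uncultured cells, D libraries were lower for all 10 genes in the fit. Of 12539 genes, 15.3% passed, and 3 of the 10 fell: H2-K1 by 1.97 ± 0.31 log2 units (limma adjusted p = 0.0039), Tap1 by 2.67 ± 0.58 (0.0148) and Psme1 by 1.15 ± 0.28 (0.0222). H2-K1 had 167 to 739 FPKM in D, against 1554, 2051 and 658 FPKM in uncultured LT-HSC, ST-HSC and MP. Tap1 was at most 28.9 FPKM in D and at least 48.8 FPKM uncultured. Psmb8, although every D library (at most 449 FPKM) was under every uncultured one (at least 546 FPKM), did not pass (-2.33, adjusted p = 0.135), nor did Psmb9 (-3.28, 0.0673) or Psmb10 (-1.25, 0.0547). Every D library was under every uncultured one for 3 of the 10 (Psmb8, Psmb10 and Tap1), against 6.46% of all tested genes. The 3 uncultured libraries also served the N comparison. Leaving out the LT-HSC libraries, one of which had the high myeloid sum, gave 2 calls of the 10, with Psme1 lost (adjusted p = 0.182), as it was without ST-HSC (0.051). Leaving out MP gave 1, with Tap1 (0.0905) and Psme1 (0.079) lost.

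In the same comparison 5 of 11 tested other heavy chains fell, among them H2-Q6 (-5.85, adjusted p = 4.87e-04), H2-Q7 (-4.62, 0.0031) and H2-D1 (-1.83, 0.0073). Here too, reads could have been shared among these chains. Of the class I regulators 5 of 21 fell, among them Ifngr1 (-3.23, 8.26e-04), Irf1 (-3.22, 0.0036) and Nlrc5 (-3.93, 0.0121). Nlrc5 had 0 to 14.8 FPKM in D and 18.7 to 57.4 FPKM uncultured. Constitutive core genes moved the other way, with 6 of 11 other core subunits higher, including Psmb4 (1.32, 0.0081) and Psma7 (1.15, 0.015), and Psmb7 up by 1.14 (0.0311). Of 20 subunits of the 19S cap 2 rose, Psmd8 (1.07, 0.0407) and Psmd13 (1.08, 0.0431), and of 7 proteasome regulators 1 did, Psmg2 (1.43, 0.0285). Reticulum genes had 2 of 8 lower, Hspa5 (-2.64, 6.17e-04) and Calr (-1.75, 0.005). Of the class II genes 3 of 9 were lower, H2-DMa (-4.39, 0.007) and H2-DMb1 (-3.48, 0.0084) first, and of the other interferon targets 2 of 16, Cxcl10 (-6.93, 1.70e-04) and Gbp3 (-3.35, 0.0247).

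Between blood cell types, over matched conditions, the 10 genes did not pass. MP were lower than the stem cells in the estimates of all 10, with a median of -0.64 log2 units (0.01 over all genes), and 0.297% of 12453 genes passed. H2-K1 was nearest (-1.26 ± 0.28, limma adjusted p = 0.0853), and it was lower in MP than in both stem cell types in all conditions except 4D. Without the 4D libraries it was the 1 of the 10 that passed (-1.37, adjusted p = 0.0452). Of the other lists, 1 of 11 tested heavy chains, H2-Q6 (-2.78, 0.0449), and 1 of 16 tested interferon targets, Dtx3l (-1.77, 0.028), were lower in MP. ST-HSC were higher than LT-HSC in the estimates of all 10 (median 0.68), and 0% of 12419 genes passed, with 811 under an unadjusted p of 0.05. Psmb9 was largest (2.13 ± 0.68, interval 0.56 to 3.69, adjusted p = 0.662), then Psmb8 (1.37 ± 0.56, 0.751). For both genes the difference in log2 units was largest in 4D. There LT-HSC and ST-HSC had 0 and 41.6 FPKM for Psmb9 and 19.7 and 446 FPKM for Psmb8. In 4N they had 137 and 167 FPKM for Psmb9 and 951 and 1469 FPKM for Psmb8.

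In fibroblasts Psmb8 and Psmb9 were low before and after doxycycline, and Psmb10 was not. Psmb8 had 0 and 1.34 FPKM in 2D and 4D and 5.57 FPKM uncultured, and Psmb9 had 0.322 and 1.36 FPKM in 2D and 4D and 0.463 FPKM uncultured. Psmb10 had 36.1 and 25.3 FPKM in 2D and 4D, against 15.5 FPKM uncultured, and was above 72.2 and 64.6% of detected genes in 2D and 4D and 53.0% in uncultured fibroblasts. B2m stayed between 235 and 336 FPKM and H2-K1 between 18.1 and 38.0 FPKM. Single libraries allow no test here. Among 12440 genes, 27.6% were past 2-fold in 1 direction at both days on the FPKM + 1 scale, and of the 10 genes 9 reached the filter (not Psmb9) and 2 were past it, both lower in D: Psmb8 (-2.72 and -1.49 log2 units at days 2 and 4) and Tap2 (-2.64 and -1.76). Uncultured fibroblasts had the highest Tap2 of all 18 libraries, 13.6 FPKM.

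Every uncultured blood library was above the uncultured fibroblast library for 8 of the 10 genes (not Tap2 and Psme2), against 30.4% of genes. Among D libraries this held for 4 (Psmb8, B2m, Psme1 and H2-K1), against 18% of genes. Psmb10 then overlapped, with 33.6 to 110 FPKM in D blood cells and 25.3 to 36.1 FPKM in D fibroblasts, and Psmb9 in LT-HSC 4D and MP 4D was listed at 0, under both D fibroblast libraries. As a share of Psmb8 plus Psmb5, Psmb8 was 0 and 8.2% in the 2D and 4D fibroblast libraries and 43.3% in uncultured fibroblasts. The D minus uncultured change was compared between fibroblasts and blood cells by an interaction term, which 0.944% of 13235 genes and none of the 10 passed. In simulated data this term found 2% of genes shifted by 2 log2 units and 36% of those shifted by 4. Psmb10 (2.17 ± 0.74, limma adjusted p = 0.243) and Tap1 (2.78 ± 1.19, 0.358) were nearest, while Cxcl10 (6.00, 0.0243) and H2-Q6 (5.85, 0.0364) passed, with H2-Q6 listed at 0 in all 3 fibroblast libraries and Cxcl10 at no more than 0.895 FPKM there.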

How the data were processed

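RNA-seq of 18 single libraries was taken as deposited. The values are FPKM per gene, made by the authors on mm9, with TopHat and Cufflinks per the submitters' processing notes; for versions, annotation and strand use, the sources used here give nothing. Counts were not recoverable from low FPKM values, which shared no common step, and depth is unknown. The 36818 entries were summed to 36655 symbols. Values were analysed as log2(FPKM + 1), which understates changes of low genes, and limma 3.58.1 (R 4.3.3) tested genes averaging 1 FPKM or more over a fit's libraries (trend and robust options, two-sided, Benjamini-Hochberg adjustment over all genes tested, threshold 0.05). D against N had a term for each of 6 pairs of cell type and day; comparisons with uncultured cells had cell type as block, and those between cell types had condition as block. Blocks are different cells or days, not replicates. Fits were tested on simulated data, where they found between 2 and 72% of genes shifted by 2 log2 units, least in the interaction fits. Inducible-to-constitutive ratios used exact sign flips over pairs.

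All 10 genes are named in every comparison. From each of 9 further lists, genes past the threshold in D against N are named (the 4 with the smallest p if more), in other comparisons up to 2 per list, and Psmb5, Psmb6, Psmb7, H2-D1, Nlrc5 and Irf1 in any case; a gene that this rule also names is not reported here. Gapdh, Rpl3 and the 4 induced factors were chosen after their values were seen. Of 134 list genes, 131 were in the table. The genes and lists were chosen with earlier results of these data known. Promoters were taken from RefSeq (GRCm38.p6). Shared 50-base stretches were those of a gene's longest coding GENCODE M21 transcript that also occur in transcripts of other genes. Python 3.11.15, numpy 2.4.6, pandas 2.3.3 and matplotlib 3.10.9 were used.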

Additional observations from a re-analysis of the deposited data

Results flagged for a closer look

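Psmb10 was higher in both D fibroblast libraries than in uncultured fibroblasts (by 1.17 log2 units at day 2 and 0.67 at day 4) and lower in all 6 D blood libraries than in the uncultured cells of their type (-0.31 to -2.18 log2 units). The difference between these changes was 2.17 ± 0.74 log2 units and did not pass over all genes (limma adjusted p = 0.243, unadjusted 0.0151). Fibroblasts and blood cells also differed in library method.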

How the results depend on the processing

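With single libraries, leaving out a pair or a cell type stands in for leaving out a replicate. For D against N, 5 of the 10 genes were called in the fit as reported, 3 with 0.1 added before the log, 2 with no filter on low values, 2 without the trend and robust options, 1 with the day 2 pairs alone, 0 with the day 4 pairs alone and 1 to 5 with 1 pair left out. Genes called over the whole table were 1099 as reported, 529 to 1042 with 1 pair left out, 171 with day 2 alone and 169 with day 4 alone. No estimate of the 10 changed sign in this comparison; 36 of its alternative estimates lost a call, 2 gained one and 132 stayed on their side. Calls against uncultured cells were 3 for D, with 1 to 2 when a cell type was left out, and those of MP against stem cells 0 to 1. Signs changed for N against uncultured cells when a cell type was left out, with ranges of -0.046 to 0.387 for Psmb9, -0.62 to 0.896 for Tap2 (both below 0 without LT-HSC) and -0.186 to 0.11 for Psme1 (above 0 without ST-HSC, 0.05, or MP), for ST-HSC against LT-HSC in B2m when a condition was left out (-0.16 without 4D, to 0.396), and for fibroblasts against blood cells in Psmb8 with 0.1 added (-1.54) or scaling to equal totals (-0.28) and in Tapbp after quantile normalization (-0.062); none of these had passed. The ratio changes had medians over pairs of -1.35, -2.37 and -2.23 (exact p = 0.125), and with 1 pair left out were -2.98 to -1.99, -4.26 to -2.94 and -2.31 to -1.97 for Psmb8, Psmb9 and Psmb10 (exact p = 0.0625, the smallest 5 pairs give). At 4-fold, 0 of the 10 passed in fibroblasts. The cause of these shifts was not tested beyond the smaller number of libraries. Depth is unknown, and each value rests on 1 library of few cells.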
